A study of Mus musculus with 6 samples.

Results

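Notch signalling genes were followed in LECs, the lymphatic endothelial cells that form the inner lining of lymph vessels, of healthy mouse skin and of xenograft tumours. The set holds 10 genes in 3 roles, namely the receptors Notch1, Notch2, Notch3 and Notch4, the ligands Dll1, Dll4, Jag1 and Jag2, and the targets Hes1 and Hey1. Every probe set whose platform annotation gives 1 of these symbols alone was taken, which gave 19 probe sets of 45037 tested and 10 genes of 18193. The healthy group was 3 samples of LECs from the mammary skin of balb-c/nude mice, and the tumour group 3 samples of LECs from MDA-MB-435 xenografts taken 8 weeks after injection. MDA-MB-435 is a human cancer line, injected under the skin of the animals, so the group models mouse vessels inside a human tumour. The arrays carry mouse probe sets, and whether human RNA added to the signals of the tumour group was not tested. All 6 samples were cut from sections by laser capture after a brief LYVE-1 stain and amplified in 1 round before hybridization to 1 array each. The labels give neither the animals' age nor whether each sample came from its own animal, so p-values measure the spread between these samples, which may be partly technical, and 3 arrays a group limit how precise they are.

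Notch receptors are single-pass membrane proteins that are activated by ligands on a neighbouring cell. Ligand binding exposes the receptor to the protease ADAM10 and then to gamma-secretase, and the freed intracellular part joins the DNA-binding protein RBPJ and a Mastermind co-activator to switch on target genes, among them the repressors of the Hes and Hey families. In blood vessels the pathway is known for arterial identity and for restraining sprouting through Dll4 and Notch1, in mural cells for Notch3, in epidermis for the switch from basal to differentiating keratinocytes, and in lymphatics for a part in sprouting and valve formation.

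Promoters from RefSeq (GRCm38.p6, 250 bases before to 50 after the start of transcription) were at hand for 8 of the 10 members, as 9 promoters, but not for Hes1 and Hey1. A set of 3 short motifs was searched on both strands. These were TGGGAA, the core of the RBPJ site, and CACGTG and CACGCG, known as sites bound by Hes and Hey proteins. Shown here are Notch3, whose probe sets gave different results, Jag1, the only member promoter with 2 matches, and Hey2, a target gene outside the set with 2 matches to the RBPJ core. Matches are in capitals, and the strand of each gene is shown 5′ to 3′.
Notch3, chr17:32166841-32167140, minus strand: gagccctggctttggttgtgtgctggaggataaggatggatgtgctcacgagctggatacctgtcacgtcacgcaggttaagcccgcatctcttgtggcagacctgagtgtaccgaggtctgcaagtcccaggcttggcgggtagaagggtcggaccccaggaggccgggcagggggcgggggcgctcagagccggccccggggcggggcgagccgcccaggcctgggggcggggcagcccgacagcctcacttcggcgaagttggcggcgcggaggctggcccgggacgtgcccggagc
Jag1, chr2:137116471-137116770, minus strand: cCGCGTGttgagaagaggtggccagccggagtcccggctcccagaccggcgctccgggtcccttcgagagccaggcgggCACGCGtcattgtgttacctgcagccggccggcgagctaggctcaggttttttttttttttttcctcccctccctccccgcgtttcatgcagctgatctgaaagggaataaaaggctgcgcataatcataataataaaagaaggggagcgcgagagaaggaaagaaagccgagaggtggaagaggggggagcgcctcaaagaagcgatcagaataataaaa
Hey2, chr10:30842734-30843033, minus strand: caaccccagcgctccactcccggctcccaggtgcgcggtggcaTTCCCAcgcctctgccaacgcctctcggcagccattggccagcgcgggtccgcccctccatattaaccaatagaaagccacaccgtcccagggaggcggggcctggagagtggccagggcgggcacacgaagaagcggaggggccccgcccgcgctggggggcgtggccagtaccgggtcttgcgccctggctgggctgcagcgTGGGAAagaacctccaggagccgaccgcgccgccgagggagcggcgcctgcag
The Notch3 promoter held no match to any of the 3 motifs. Jag1 held CACGCG at 249 and 171 bases before the start, and CACGCG was also in promoters of Notch2, Dll1, Dll4 and Jag2. So 5 of 8 members had it in at least 1 promoter, against 9.27% of the 32851 promoters in the table. The first value counts genes and the second promoters, and the comparison was not matched for base composition. None of the 8 held TGGGAA or CACGTG in this window, which 25.6% and 7.15% of all promoters did. Hey2 held TGGGAA at 207 and 3 bases before the start, as Hes5 did at 226 and 82, and 3.79% of all promoters had at least 2 matches. Such matches are letters in a window and not measured binding.

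The array signals ran from a background of 2.96 to 3.91 on the log2 scale, taken on each array as the 95th percentile over its 27 probe sets for bacterial transcripts, and between 39.6% and 56.0% of probe sets lay above it. Of 9 LEC markers measured, Flt4 was between 7.30 and 9.63 and Prox1 between 4.73 and 7.58 on the 6 arrays, while Stab2 was above background on none and Foxc2 on 1 of 6. The mean over the 9 was 5.17 to 6.18 in healthy skin and 6.42 to 7.06 in tumours, a difference of 1.03 with groups that did not overlap, and its part in the Notch values was not tested. Lyve1, the stained protein's gene, had 3.21, 7.58 and 6.81 in healthy skin and 9.64, 9.41 and 9.65 in tumours. Only healthy replicate 1 was below background. The Lyve1 difference was 3.70 log2 with groups that did not overlap (limma unadjusted p = 0.0106, adjusted p = 0.626). Means over 12 keratinocyte markers were 7.87 to 8.40 in healthy skin and 4.41 to 6.51 in tumours, and were above background on all 6 arrays. In such captures fewer cells of a type and less RNA per cell cannot be told apart.

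None of the 19 Notch probe sets differed between the groups at the threshold, with limma adjusted p between 0.722 and 0.992. Over all probe sets the same test called 0.00444%, so a count of 0 is what the background gives for a set of this size. At an unadjusted limma p under 0.05 there were 2 of 19 (10.5%), Notch3 on the higher side and Hey1 on the lower, against 6.36% of all probe sets, 2.83% of them higher in tumours and 3.53% lower. The 3 tumour values and the 3 healthy values overlapped in each of the 19, whereas 11.1% of all probe sets had groups that did not overlap. Positive differences were seen in 15 of 19 probe sets (55.5% of all), and the median difference was 0.28 log2, beside 0.06 over all probe sets. Leaving out healthy replicate 2 or tumour replicate 3 gave a median of 0.09, and the count at an unadjusted p under 0.05 was 1 without any 1 of the healthy samples and 0 without tumour replicate 3. The 95% intervals were between 1.30 and 4.27 log2 wide. In 5 probe sets, 1 each of Notch1, Notch4, Dll4, Jag1 and Hes1, the interval lay within a doubling either way, and 3 of those 5 (Notch1, Jag1 and Hes1) were above background on every array.

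**Figure D1:**
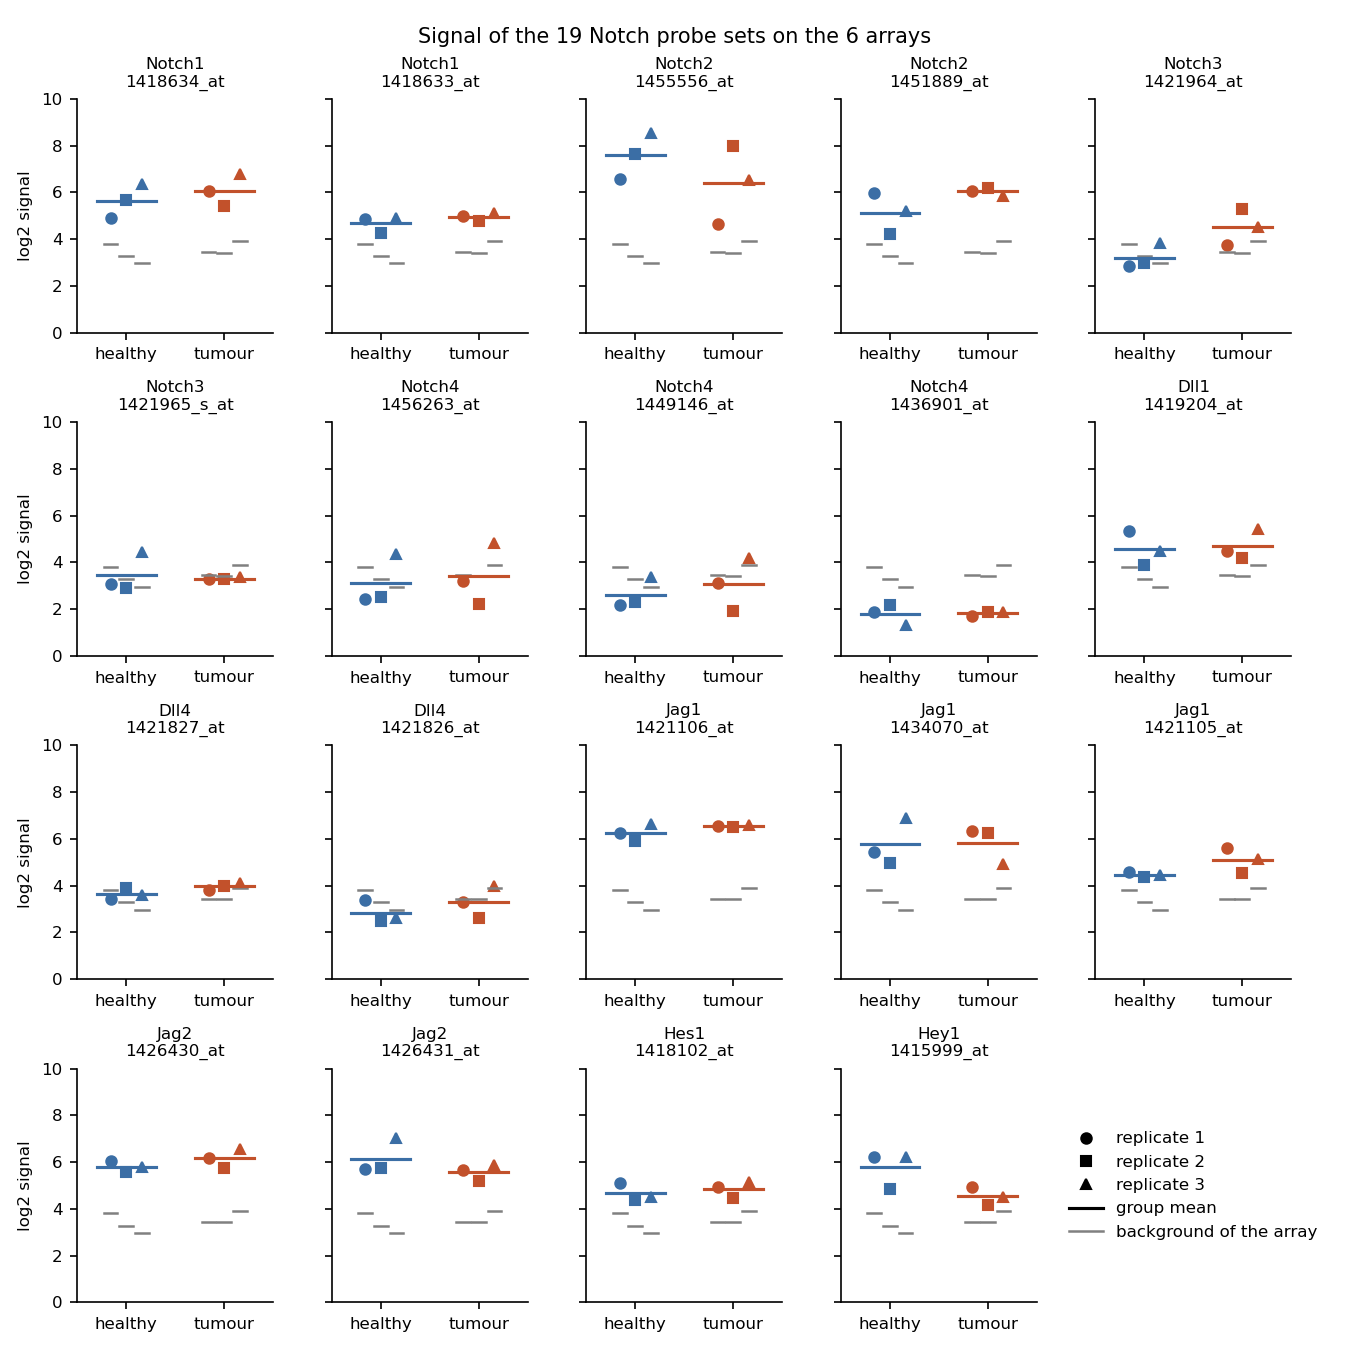
Signal (log2) of each of the 19 Notch probe sets on the 6 arrays, with healthy skin in blue, tumours in orange, replicates as symbols, group means as coloured lines and the background of each array as grey dashes. The points of both groups overlap in every panel, and the 3 Notch4 probe sets lie near or below background on most arrays.

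Among the receptors, Notch3 had a higher mean in tumours on 1 of its 2 probe sets, with an unadjusted p under 0.05 that did not pass adjustment. Notch3, the receptor known from pericytes and vascular smooth muscle, had 2.84, 2.97 and 3.82 (log2) in healthy replicates 1, 2 and 3 and 3.77, 5.30 and 4.51 in the tumour replicates on probe set 1421964_at. The lowest tumour value fell just under the highest healthy value, and 1 of 3 healthy and 3 of 3 tumour samples were above background. The difference was 1.32 log2 with a standard error of 0.48 and a 95% interval of 0.18 to 2.45 (limma unadjusted p = 0.0288, adjusted p = 0.722). With 2 healthy samples below background, its size depends on values that the arrays did not measure well. It was 0.93 without tumour replicate 2 and 0.65 with 16 added to each signal before log2. Probe set 1421965_s_at of the same gene had 3.08, 2.89 and 4.45 in healthy skin and 3.27, 3.27 and 3.36 in tumours, with no tumour sample above background. The gap between both Notch3 probe sets was larger in each tumour sample (0.51, 2.03 and 1.15) than in any healthy sample (-0.24, 0.08 and -0.63), with an exact two-sided permutation p of 0.1 (n = 3 per group), the smallest that 3 against 3 samples allow, so that no pair could pass 0.05, and 0.45 after adjustment over the 9 pairs of probe sets compared in the set. Beside this, 11 pericyte and smooth muscle markers averaged 5.08 to 5.47 in healthy skin and 4.93 to 6.29 in tumours, and 8 of the 11 had positive differences, against 57.3% of all genes. Their mean was highest in tumour replicate 2, as Notch3 was, but lowest of all arrays in tumour replicate 3 (4.93), where Notch3 was 1.30 above the healthy mean. Among them Cspg4, the NG2 proteoglycan of pericytes, had 3.11 to 4.64 and 4.88 to 5.35, while Pdgfrb, the PDGF receptor of mural cells, had 6.79 to 8.23 and 5.11 to 8.70. Their part in the Notch3 values was not tested.

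Notch2, which shares ligands with Notch1 and is known for roles in smooth muscle and immune cells, gave opposite signs on its probe sets. On 1455556_at it had 6.56, 7.64 and 8.56 in healthy skin and 4.63, 7.99 and 6.54 in tumours, a difference of -1.20 (interval -3.34 to 0.94, limma adjusted p = 0.872). Tumour replicate 1 was the lowest of the 6 and tumour replicate 2 the second highest, and without tumour replicate 1 the difference was -0.32. On 1451889_at the values were 5.97, 4.24 and 5.21 against 6.08, 6.20 and 5.86, a difference of 0.90 (interval -0.19 to 1.99, limma adjusted p = 0.843). Here 2 of 3 tumour samples were above every healthy one. The group difference of the first probe set minus that of the second was -2.10 log2 (exact permutation p = 0.3, n = 3 per group, adjusted p = 0.9).

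Notch1, the main receptor of Dll4 in sprouting vessels and also active in suprabasal epidermis, was above background on all arrays. On 1418634_at it had 4.89, 5.69 and 6.34 in healthy skin and 6.04, 5.43 and 6.77 in tumours. The groups were interleaved, with a difference of 0.44 (interval -0.75 to 1.63, limma adjusted p = 0.909) that ran from 0.06 without healthy replicate 1 to 0.79 without healthy replicate 3. On 1418633_at the values stayed between 4.27 and 5.10 and differed by 0.28 (interval -0.43 to 0.98), so a doubling in either direction lay outside the interval of this probe set.

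Notch4, a receptor found mostly in endothelium, was rarely above background. On 1456263_at it had 2.45, 2.51 and 4.37 in healthy skin and 3.22, 2.22 and 4.84 in tumours, and only replicate 3 of each group was above background. On 1449146_at the same samples stood out, with 3.39 in healthy replicate 3 and 4.18 in tumour replicate 3 and the other 4 between 1.93 and 3.10. Differences were 0.31 and 0.45 (limma adjusted p = 0.965 and 0.926), and each was below 0 without tumour replicate 3 (-0.39 and -0.10), the first also without healthy replicate 1 (-0.02). The third probe set, 1436901_at, was below background on all 6 arrays (1.31 to 2.18) and gives no direction.

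Of the ligands, Jag1, Jag2 and Dll1 were above background on every array, and no ligand probe set differed by more than 0.64 log2. Jag1, a ligand of endothelium, smooth muscle and epidermis, had 6.26, 5.92 and 6.64 in healthy skin and 6.55, 6.50 and 6.58 in tumours on 1421106_at. The tumour samples lay close together and inside the healthy range, with a difference of 0.27 (interval -0.42 to 0.95, limma adjusted p = 0.904). On 1421105_at it had 4.58, 4.35 and 4.46 against 5.63, 4.55 and 5.14, a difference of 0.64 (interval -0.17 to 1.46, limma adjusted p = 0.848), in which 2 of 3 tumour samples exceeded all healthy ones. On 1434070_at the values spread from 4.91 to 6.89 with a difference of 0.06, which turned negative without any 1 of 4 samples, the lowest being -0.34 without healthy replicate 2.

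Jag2, the other Jagged ligand, had probe sets of opposite sign. On 1426430_at it had 6.03, 5.56 and 5.79 in healthy skin and 6.18, 5.74 and 6.56 in tumours, a difference of 0.37 (interval -0.39 to 1.13, limma adjusted p = 0.883). On 1426431_at it had 5.70, 5.73 and 7.02 against 5.68, 5.20 and 5.87, a difference of -0.56 (interval -1.61 to 0.48, limma adjusted p = 0.875), and healthy replicate 3 alone stood above the rest, the difference being between -0.79 and -0.13 with each sample left out. The gap between the probe sets was 0.33, -0.17 and -1.22 in healthy skin and 0.50, 0.54 and 0.69 in tumours (exact permutation p = 0.1, n = 3 per group, adjusted p = 0.45). Of the 9 pairs of a gene's probe set with its brightest one, 6 had both probe sets above background on at least 1 array of each group, and of these 4 had differences of the same sign and 2, those of Notch2 and Jag2, of opposite sign.

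Dll4, the ligand of endothelial tip and arterial cells, stayed close to background. On 1421827_at it had 3.42, 3.90 and 3.62 in healthy skin and 3.80, 3.98 and 4.12 in tumours. All but healthy replicate 1 were above their array's background, and the difference of 0.32 had an interval of -0.33 to 0.97 (limma adjusted p = 0.881). On 1421826_at only tumour replicate 3 (3.97) was above background, and with no healthy sample above it the difference is not read. Dll1, the other Delta ligand of the set, had 5.33, 3.90 and 4.47 in healthy skin and 4.47, 4.18 and 5.45 in tumours on its single probe set, with groups that covered largely the same range and a difference of 0.14 (interval -1.04 to 1.31, limma adjusted p = 0.978).

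The targets had values of opposite sign. Hey1, a repressor induced by Notch in endothelium and other cells, had 6.24, 4.87 and 6.24 in healthy skin and 4.92, 4.18 and 4.53 in tumours on its single probe set, 1415999_at. Healthy replicates 1 and 3 stood above every tumour sample, and healthy replicate 2 lay just under tumour replicate 1. The difference was -1.24 log2 with a standard error of 0.46 and an interval of -2.32 to -0.16, that is 0.424 times the healthy level (limma unadjusted p = 0.0306, adjusted p = 0.728). With each sample left out in turn it was between -1.70 and -1.01, and with array weights -0.69. Hes1, the repressor most widely used as a readout of Notch activity, had 5.12, 4.40 and 4.52 in healthy skin and 4.95, 4.46 and 5.13 in tumours. Its groups covered the same range, and the difference of 0.17 had an interval of -0.62 to 0.96 (limma adjusted p = 0.95), with 0.02 to 0.39 when each sample was left out.

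**Figure D2:**
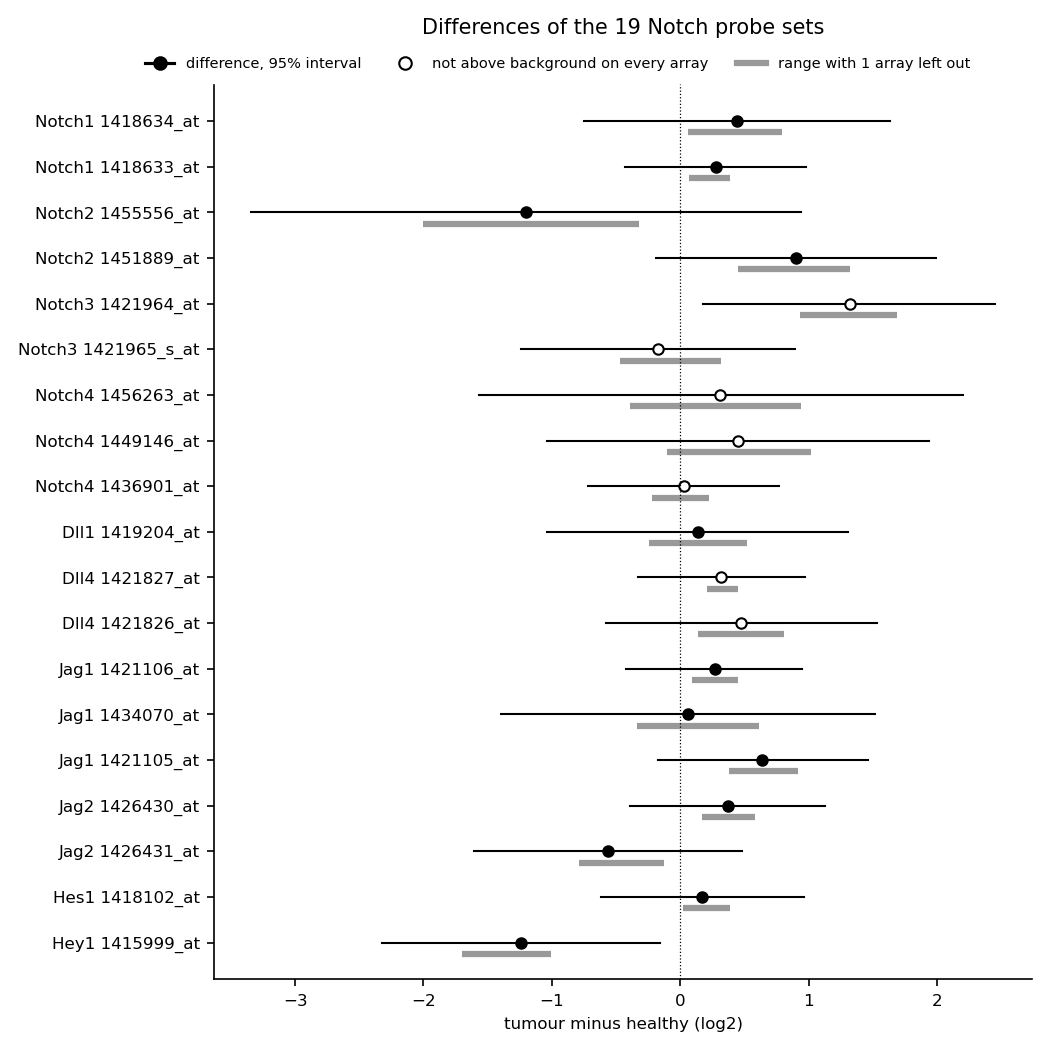
Differences (tumour minus healthy, log2) of the 19 Notch probe sets with limma 95% intervals, open circles for probe sets not above background on every array, and grey bars for the range when 1 array is left out. Only the intervals of Notch3 1421964_at (0.18 to 2.45) and Hey1 1415999_at (-2.32 to -0.16) lie on 1 side of 0.

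Across arrays the members did not follow a single order. Tumour replicate 3 had the highest tumour value in 13 of 19 probe sets and tumour replicate 2 the lowest in 12. In healthy skin, replicate 3 was highest in 11 and replicate 2 lowest in 11. Tumour replicate 3 also had the lowest keratinocyte mean (4.41) and the lowest fibroblast mean (5.95), and tumour replicate 2 the highest macrophage mean (7.98, against 5.57 to 6.02 on the other 5 arrays). Pan-endothelial markers averaged 4.33 to 4.49 in healthy skin and 5.74 to 5.91 in tumours, with positive differences in 12 of 12, against 57.3% of all genes. A list of 10 genes of arterial and tip cells averaged 3.79 to 4.41 in healthy skin and 4.10 to 4.85 in tumours. That list also holds Nr2f2, a factor of venous and lymphatic endothelium, and without it the means were 3.60 to 4.25 and 3.64 to 4.58. Of its 10 genes, only 5 were above background on at least 3 of 6 arrays. Esm1, a tip cell marker, and Bmx were below it on all 6 arrays, and Apln, also a tip cell marker, on all 3 healthy arrays. Gja5 was above it on 1 healthy array only and Vegfc on 2 healthy arrays only. By brightest probe sets, the median difference was 0.29 over the members, 1.18 over the pan-endothelial markers and 0.31 over the arterial and tip list. The part of the captured cell types in these values was not tested.

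**Figure D3:**
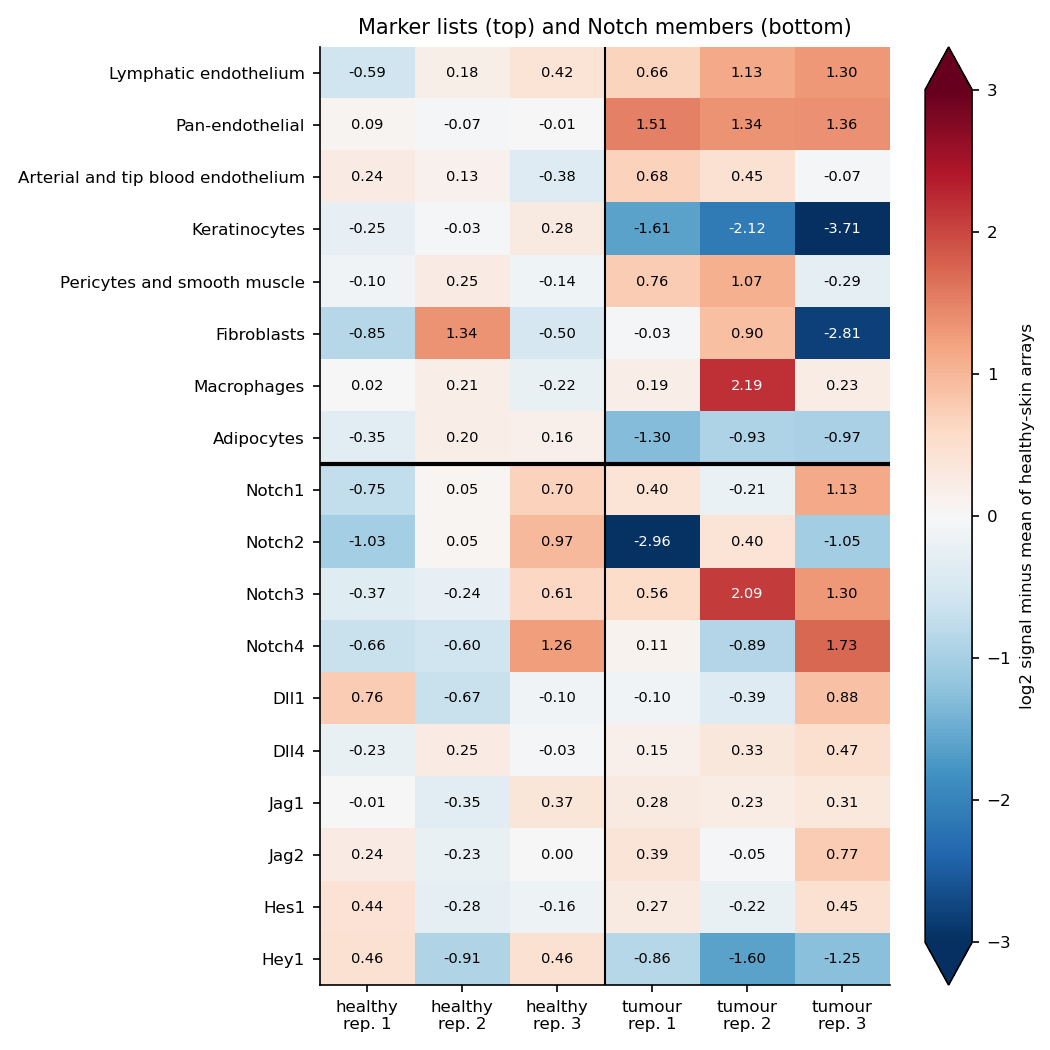
Mean log2 signal of 8 marker lists (above the line) and signal of the brightest probe set of each Notch member (below it) on each array, as the difference from the mean of the 3 healthy arrays, with red for higher, blue for lower and colours saturating at 3. Pan-endothelial markers are between 1.34 and 1.51 higher on the tumour arrays and keratinocyte markers lie between -3.71 and -1.61, whereas Notch members range from -2.96 to 2.09.

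The rest of the pathway was described with a list of 83 genes, of which 77 had a probe set with a single symbol. None of the 77 passed on its brightest probe set (0.00550% of all genes did), and 5 (6.49%) had an unadjusted limma p under 0.05, against 7.50% of all genes. They were 4 on the higher and 1 on the lower side, against 3.22% and 4.28% of all genes. Groups did not overlap in 9 of 77, against 11.9% of genes, and 45 had positive differences, against 57.3%. The median was 0.07 log2, beside 0.08 over all genes, and 0.24 without healthy replicate 1, where the median over all probe sets was 0.15. Over all 170 probe sets of these genes none passed either, and 13 (7.65%) had an unadjusted limma p under 0.05, 9 higher and 4 lower, against 6.36% of all probe sets. The smallest p was that of Efnb2 1419638_at, described with the targets.

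Of the 8 measured proteases that cut the receptors, Adam10, which makes the first cut after ligand binding, had 5.97 to 6.91 in healthy skin and 7.36 to 8.39 in tumours on its brightest probe set. All tumour samples were above all healthy ones, with a difference of 1.52 and a standard error of 0.41 (limma unadjusted p = 0.00765, adjusted p = 0.583). Its other probe sets differed by 2.62, -0.15 and 0.34. The first of these also had groups that did not overlap, with 2 healthy and 3 tumour samples above background (limma unadjusted p = 0.0123, adjusted p = 0.642). The second was above background in 2 healthy samples and 1 tumour sample, and the third in 0 healthy samples and 1 tumour sample. Furin, which cuts the receptor during maturation, had 7.04 to 7.15 and 7.41 to 7.94 (difference 0.54, limma adjusted p = 0.843). The gamma-secretase subunit genes Ncstn and Psen2 differed by -0.79 and 0.34.

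In the nuclear group of 19 measured genes, Kat2a, a histone acetyltransferase, had 4.94, 4.26 and 4.58 in healthy skin and 5.63, 6.37 and 6.61 in tumours (difference 1.61, limma unadjusted p = 0.00321, adjusted p = 0.516). Its other probe sets differed by 0.07 and, with no tumour sample above background, by -1.12 (limma unadjusted p = 0.0232). Ep300, the acetyltransferase p300 recruited by Mastermind, differed by 1.15, from 4.06 to 4.50 in healthy skin to 4.84 to 5.83 in tumours (limma adjusted p = 0.644). Both had groups that did not overlap. Hdac2, a histone deacetylase of co-repressor complexes, had 8.16, 8.60 and 9.46 against 7.36, 6.14 and 7.83 and went the other way by -1.63 (limma adjusted p = 0.697). Its other probe sets differed by -2.87, with groups that did not overlap (limma unadjusted p = 0.0128, adjusted p = 0.644), and by -0.34, with no tumour sample above background. Ctbp2, a co-repressor, differed by 1.13 with groups that overlapped. Rbpj, the DNA-binding protein itself, is outside the 4 smallest p of its group and was chosen for its role. Its 3 probe sets differed by 0.38, -1.92 and -0.81, none with an unadjusted limma p under 0.05. The brightest, with 0.38, had 5.09, 5.14 and 5.73 in healthy skin and 6.03, 6.20 and 4.87 in tumours (interval -0.64 to 1.40, limma adjusted p = 0.908).

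Among 18 other family members and targets, Heyl and Hey2, which like Hey1 are known as Notch targets in vessels, were highest in tumour replicate 2. Heyl, known from smooth muscle and pericytes, had 3.12, 2.15 and 1.56 in healthy skin and 3.51, 6.55 and 2.92 in tumours on its brightest probe set, with no healthy sample and 2 tumour samples above background. The other Heyl probe sets differed by 0.02 and -0.14. Hey2, whose promoter is printed above, had 1.69, 1.33 and 0.88 against 1.16, 4.78 and 3.26, and only tumour replicate 2 was above background. Neither passed (limma adjusted p = 0.816 and 0.827). Bhlhe40, a relative of the Hes repressors also known from hypoxia and the clock, had 3.55, 3.26 and 3.62 against 5.20, 4.06 and 5.06, a difference of 1.30 with groups that did not overlap (limma adjusted p = 0.635). Only 1 of 3 healthy samples was above background, against 3 of 3 tumour samples, so the size of the Bhlhe40 difference was not well measured. Sox17, a factor of arterial endothelium, had 3.49 to 5.60 and 2.56 to 3.93. Efnb2, an ephrin ligand of arterial and lymphatic endothelium and a Notch target, was named here outside the rule of smallest p. On its brightest probe set it differed by 0.01, but on 1419638_at the linear signal was 117, 93.4 and 128 in healthy skin and 13.5, 19.7 and 17.6 in tumours. All 6 values were above background and the groups were far apart, with a log2 difference of -2.74 and a standard error of 0.29 (limma unadjusted p = 3.66e-05, adjusted p = 0.0784). It passed with array weights (limma adjusted p = 0.0478) and under none of the other 13 alternatives, where the difference was between -2.87 and -1.96. The last pair of Efnb2 probe sets differed by -2.37 and -0.63. For the first of these the interval was -4.86 to 0.13 (limma unadjusted p = 0.0596, adjusted p = 0.803). Its groups narrowly missed overlapping, with a lowest healthy value of 4.97 and a highest tumour value of 4.90. Only 2 of its 3 tumour samples were above background. For the second the groups overlapped. These Efnb2 values were singled out after they were seen.

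On the brightest probe sets, differences in the other groups were between -1.14 and 0.94. Of 10 ligands and related proteins, Egfl7, a secreted endothelial protein reported to bind Notch ligands and receptors, had 6.18, 6.96 and 7.17 in healthy skin and 7.26, 7.53 and 8.26 in tumours (difference 0.91, limma adjusted p = 0.803), and its other probe sets differed by 1.06, 1.12 and 1.74 (limma unadjusted p = 0.0712, 0.0216 and 0.00685). The last of these had 4.22, 3.82 and 5.07 in healthy skin and 5.44, 6.58 and 6.33 in tumours (limma adjusted p = 0.579). Among the Egfl7 probe sets, groups overlapped only on the one that differed by 1.06. Mfap5, Dlk1 and Mfap2 differed by 0.71, 0.45 and 0.34. Of 6 genes for glycosylation of the receptors, Pofut1 differed by 0.36, Eogt by -0.92, Poglut1 by -0.51 and the Fringe gene Mfng by 0.17. Eogt had 8.96 in healthy replicate 2 and 4.74 to 5.70 on the other arrays. Of 16 endocytosis and ubiquitin ligase genes, Itch, a ligase that marks Notch for breakdown, differed by 0.61, Fbxw7, which targets the intracellular domain, by 0.94, and the Deltex genes Dtx3 and Dtx1 by -1.14 and -0.51. No gene of these 3 groups had an unadjusted limma p under 0.05 on its brightest probe set. On other probe sets Dlk2, a Delta-like protein, differed by 0.94 (limma unadjusted p = 0.042, adjusted p = 0.764) and Pofut1 by 1.16 (limma unadjusted p = 0.0478, adjusted p = 0.78), both with groups that overlapped.

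**Figure D4:**
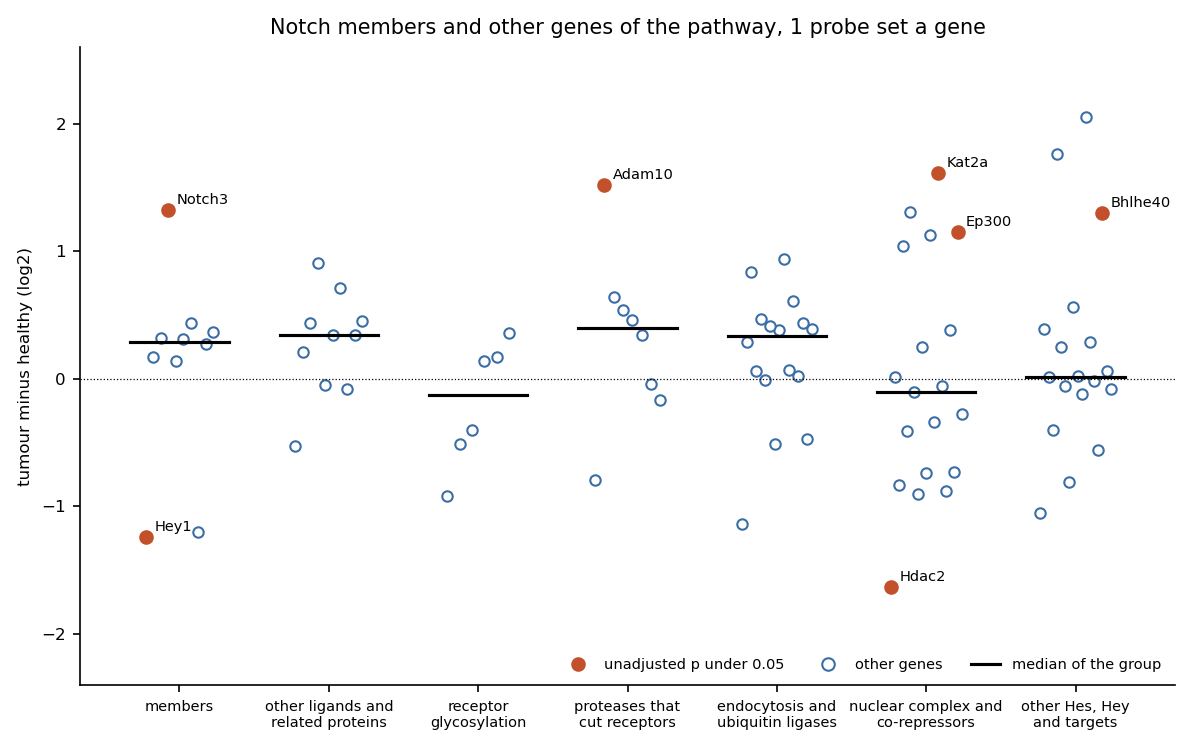
Difference (tumour minus healthy, log2) of the 10 Notch members and 77 other pathway genes, 1 probe set a gene, with filled orange circles at an unadjusted limma p under 0.05, open blue circles otherwise and bars at group medians. The medians lie between -0.13 and 0.40, and 7 genes are filled.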

How the data were processed

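The authors deposited probe set intensity values, linear in scale, from 6 arrays with 45101 probe sets each. RMA, which corrects background, quantile-normalizes and summarises probes, is the tool named per the submitters' processing notes, with no version or filter. Maximum signals between 31520 and 33063, beside array medians between 9.49 and 10.9, showed the scale to be linear. The log2 was therefore taken with nothing added, and 64 control probe sets were dropped. Amplification from few cells adds spread, and equalising arrays hides any overall difference in RNA amount. Symbols came from the platform annotation, where 34945 of 45037 probe sets had 1, 932 several and 9160 none.

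The tumour and healthy groups were fitted with limma 3.58.1 (R 4.3.3; lmFit and eBayes, two-sided, no block). Benjamini-Hochberg adjustment ran over all 45037 probe sets, the threshold was 0.05, and the code was tested on simulated data. A pathway gene was taken at its brightest probe set by mean over all arrays. The 4 genes with the smallest unadjusted p in each pathway group were named. Rbpj was added for its role and Efnb2 after its values were seen. Members, lists and tests were chosen with earlier results of these data known. Alternatives were quantile normalization, median centring, a minimum signal (above background on 3 of 6 arrays), a pseudocount of 16, a replicate block, trend and robust options, array weights, a mean over a gene's probe sets and each sample left out. A covariate for hybridization controls (mean of 9 probe sets) and a count over every pathway probe set were added after seeing the data.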

Additional observations from a re-analysis of the deposited data

How the results depend on the processing

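No Notch probe set passed the threshold under any of the alternatives run (the filter left 14 of the 19 to test), nor did any other pathway gene on its brightest probe set. Over all 170 pathway probe sets, a count added after seeing the data, 0 passed as reported and 1, Efnb2 1419638_at, with array weights. Of the members' values, 237 of 261 values of single probe sets kept their sign. The filter, the replicate block and the trend and robust options leave the fitted difference unchanged, so their values could not turn. The count also includes the probe sets named below whose signs are not read. The number of probe sets called over the whole array was less stable: 2 as reported, 21 with the filter on dim probe sets, 22 with array weights, 1 with trend and robust options, 0 after median centring, 0 with a pseudocount of 16, 0 with the replicate block, 0 with the hybridization-control covariate, and between 0 and 23 with each sample left out, 23 being without tumour replicate 2. The replicate numbers were not taken to pair the samples (correlations of same-numbered deviations 0.04, 0.10 and -0.01, and not every sample correlated best with its own number), and the replicate block left the member count at 0. The pathway median, 0.07, was between 0.08 and 0.24 with a sample left out and -0.04 with the covariate, and the members' median, 0.28, ran from 0.07 with the covariate to 0.42 with array weights. With the covariate, chosen after seeing the data, signs turned for Notch2 1455556_at (0.26), Notch3 1421965_s_at (0.10), Notch4 1436901_at (-0.04), Dll1 (-0.80), Dll4 1421826_at (-0.39), Jag2 1426430_at (-0.07) and Hes1 (-0.39). Notch3 1421965_s_at had 0.07 with array weights, and Notch4 1436901_at -0.18 with array weights, -0.01 after quantile normalization, -0.01 after centring and -0.002 with the pseudocount. With each sample left out, Notch3 1421965_s_at ran from -0.47 to 0.32, Notch4 1456263_at from -0.39 to 0.94, 1449146_at from -0.10 to 1.02 and 1436901_at from -0.22 to 0.22, Dll1 from -0.24 to 0.52 and Jag1 1434070_at from -0.34 to 0.61. The cause was not tested. Dll4 1421826_at, Notch3 1421965_s_at and Notch4 1436901_at have a group with no sample above background, so their signs are not read. With array weights Notch3 1421964_at had 1.12 and Notch2 1451889_at 1.31, and without healthy replicate 1 they had 1.13 and 1.32. Signal near background limits Notch4, Dll4 and Notch3, and with 3 samples a group the intervals of most members allow a doubling.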
